A study of Mus musculus with 3 samples.

Results

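The genes described here encode F-box proteins other than Fbw7, the protein deleted in this mouse study. They were taken as every gene symbol of the form Fbxw, Fbxl or Fbxo plus a number, Fbxw7 apart, on probe sets that the array annotation assigns to 1 gene. This gave 69 of the 19938 genes measured, with 36 Fbxo, 17 Fbxl and 16 Fbxw genes. All 69 matched a mouse RefSeq gene by gene ID. Fbxl7 and Fbxo31 had more than 1 such probe set, and for each the one that was brightest on average was used. Another 2 probe sets list several Fbxw genes and were not used.

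F-box proteins are the substrate-recognition subunits of SCF ubiquitin ligases. Each binds the adaptor Skp1 through its F-box, and Skp1 links it to the cullin Cul1 and the RING protein Rbx1, which brings in the ubiquitin-conjugating enzyme. Substrates are bound by a separate domain, which gives the classes their names: WD repeats in Fbxw proteins, leucine-rich repeats in Fbxl proteins and other domains in Fbxo proteins. F-box proteins draw on a shared supply of Skp1 and Cul1, and the ligase is active when the cullin carries the ubiquitin-like protein Nedd8. Fbw7 is the member that recognises phosphorylated cyclin E, Myc, Jun and Notch.

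Each group was 1 array of RNA from 30000 sorted pancreatic cells of C57BL/6 mice older than 6 weeks. The beta cell group was a pool of 3 untreated Fbw7 +/+ mice carrying MIP-GFP, which marks beta cells with green fluorescent protein. The ductal groups were each a pool of 6 mice with Ck19-CreERT and R26-LSL-YFP. Mice of the control ductal group were Fbw7 +/+ and those of the deleted ductal group Fbw7 F/F. Both ductal groups were given tamoxifen on 5 days and collected 7 days after the last injection, which switches on Cre and the yellow reporter in cells with an active cytokeratin 19 promoter. Cell type, reporter, Cre and tamoxifen differ together between the beta cell array and the ductal arrays and cannot be told apart. Since each group is 1 array, differences could not be set against the spread between replicates and no p-value was computed; every comparison is between these arrays, and 2-fold is a size, not a test.

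The values are log2 intensities. A gene was taken as above the floor where its level on an array exceeded that array's median over probe sets of 1 gene, which was 5.30 in beta cells, 5.23 in control and 5.24 in deleted ductal cells. The SD over all probe sets was 1.57 in beta cells, 2.02 in control and 1.97 in deleted ductal cells, so the beta cell array had the narrower range of values. Fbxw7 itself, on its brighter probe set, read 7.00 in beta cells, 6.32 in control and 5.71 in deleted ductal cells; its other probe set read 4.95 in all 3 arrays, below the floor. Where either lies relative to the floxed exons was not examined here. The arrays did not follow their labels for every marker. Of 15 duct markers measured, Cftr and Prom1 read below the floor in control and Cftr in deleted ductal cells. Of 13 above the floor in the pair of beta and control ductal cells, 8 were lower in beta cells, Epcam was identical and 4 were higher (Cdh1, Muc1, Ambp and Onecut1). Of 12 beta cell markers, Pdx1, G6pc2, Pcsk1 and Glp1r read below the floor in beta cells. The beta cell markers had a mean of 6.61 in beta cells, 4.58 in control and 4.87 in deleted ductal cells. Of 8 above the floor in beta or control ductal cells, 7 were higher in beta cells, among them Ins2 at 11.04 and Iapp at 9.86, and Mafa was identical. All 10 mesothelial markers were above the floor in both ductal arrays, with a mean level of 9.84 in control and 9.77 in deleted cells against 5.18 in beta cells. Acinar markers had a mean level of 9.74 in beta cells, 7.82 in control and 9.29 in deleted ductal cells. Leukocyte markers had a mean of 6.58 in beta cells, 4.85 in control and 4.81 in deleted ductal cells. Markers of other islet cells had a mean of 8.35 in beta cells, 5.35 in control and 5.92 in deleted ductal cells. Among them, the somatostatin gene Sst read 11.04 in beta cells, and the glucagon gene Gcg was higher there than in control ductal cells by 6.23 (5.77 against the floor). Endothelial markers had a mean of 6.25, 5.15 and 5.24 in the same order, and mesenchymal markers read 6.70 in beta cells. Between the ductal arrays, duct markers had a mean of 7.17 in control and 8.33 in deleted cells, and mesenchymal markers 9.18 and 8.32. Their part in the differences below was not tested, and in such pools fewer cells of a type and less RNA per cell cannot be told apart.

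Of the 69 F-box genes, 43 were above the floor in at least 1 array, 35 were above it in all 3 arrays, and 26 were below it in every array. The share above the floor in at least 1 array was 62.3% of the F-box genes and 56.7% of all genes, and the share above it in all 3 arrays was 50.7% against 42.7%. By class, 6 of 7 genes of the WD repeat group, 12 of 17 leucine-rich repeat genes and 23 of 36 genes with other domains were above it somewhere. The remaining class holds Fbxw genes of the higher numbers, which in the mouse lie mostly in a tandem array; of its 9 measured genes, 8 lie on chromosome 9 and Fbxw17 on chromosome 13. Only Fbxw17 and Fbxw22 of these 9 were above the floor anywhere. The other 7 read between 2.16 and 4.62 on all arrays. Genes of this array are close copies of each other, and 4 of the neighbouring pairs of F-box genes in the genome are in it, so probes can share signal between them.

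Many values were exactly equal between arrays. An F-box gene read the same in all 3 arrays in 25 of 69 cases, which is 36.2% against 21.2% of all genes. Among the 43 genes above the floor this held for 13, or 30.2% against 17.6%: Fbxl6, Fbxl7, Fbxl8, Fbxl12, Fbxl15, Fbxl19, Fbxo6, Fbxo7, Fbxo17, Fbxo21, Fbxo44, Fbxw4 and Fbxw9. Both ductal arrays held the same value for 44 of the 69 (63.8%, against 59.1% of all genes) and for 23 of the 43 (53.5%, against 49.4%). Probe-level values were not analysed here, so equal summary values do not show equal transcript amounts. The further probe set of Fbxl7 read 4.48 in beta cells and 4.20 in both ductal arrays, below the floor. The plot of levels by array shows the 13 genes as stacked points. Several genes with known roles were among these 13, and others were below the floor. Of the genes listed here under glycan binding, which was not examined for any of them, Fbxo2 and Fbxo27 were below the floor. In every array Fbxo6 read 6.45, Fbxo17 read 5.81 and Fbxo44 read 5.31. Fbxo7, a mitochondrial quality control gene mutated in a form of parkinsonism, read 5.60 in every array, and Fbxl4, the gene of a mitochondrial disease, read 4.64, below the floor. Fbxl21, which acts on the clock protein cryptochrome, read 4.02 in every array. Of the muscle genes, Fbxl22 read 5.13 in every array and Fbxo32, the atrophy gene also called atrogin-1, 4.77 in beta and deleted ductal cells and 4.76 in control ductal cells, all below the floor.

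**Figure D1:**
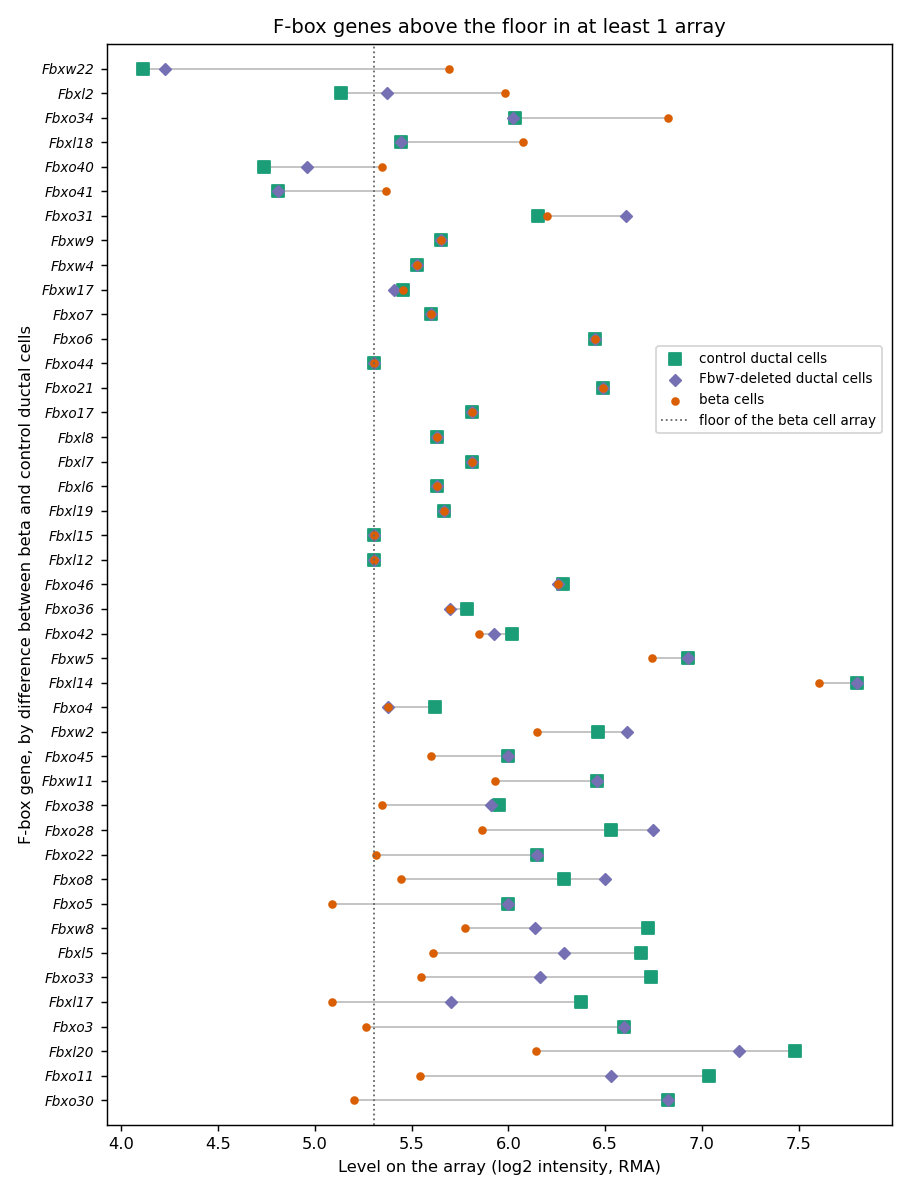
Level (log2 intensity, horizontal axis) of the 43 F-box genes above the floor in at least 1 array, with 1 point for each array and genes ordered by the difference between beta cells and control ductal cells; the dotted line is the floor of the beta cell array, 5.30. From Fbxo30 at the bottom to Fbxl17 the beta cell point lies left of both ductal points, while 13 genes have their 3 points on top of each other.

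The first comparison asks which F-box transcripts differ once Fbw7 is removed from ductal cells. No F-box gene differed by 2-fold between deleted and control ductal cells. Of 40 genes above the floor, 0 were higher by 2-fold or more and 0 were lower by as much, where 1.43% of all 10035 genes were higher and 1.81% lower. At those shares, under 1 gene of 40 would be past 2-fold in each direction. The median difference was 0 for the F-box genes and 0 for all genes. Identical values made up 22 of the 40 (55%, against 48.2% of all genes), 13 were lower in deleted cells (32.5%, against 35.4%) and 5 were higher (12.5%, against 16.4%). These shares lie near those of all genes.

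The lowest difference was that of Fbxl17, which encodes a quality control factor for BTB-domain dimers. It read 6.38 in control and 5.71 in deleted cells, a difference of -0.67 or 1.59-fold. Fbxw8, whose protein works with the cullin Cul7, read 6.72 and 6.14, a difference of -0.59. Fbxo33 read 6.74 and 6.16, a difference of -0.58. Next was Fbxo11, which directs the repressor Bcl6 to degradation, with 7.04 in control and 6.53 in deleted cells. Fbxl5, the iron sensor that controls iron regulatory proteins, read 6.68 and 6.29. Fbxl20 was at -0.29 and Fbxo4, a gene tied to cyclin D1 turnover, at -0.24. The other 6 lower genes lay between -0.09 and -0.01, with Fbxo42 (-0.09), Fbxo36 (-0.08) and Fbxw17 (-0.05) the lowest of them. In the opposite direction Fbxo31, which promotes cyclin D1 degradation after DNA damage, read 6.15 in control and 6.61 in deleted cells, or 0.46 higher. Its further probe set read 5.60 in both, so the direction rests on 1 of 2 probe sets. Fbxl2 (0.24), Fbxo28 (0.22), Fbxo8 (0.21) and Fbxw2 (0.15) were the other higher genes, and the Fbxl2 difference was 0.14 with its control level raised to the floor. Every one of these sizes lies below 2-fold on arrays without replicates.

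Of 4 F-box genes grouped by a role in the cell cycle and genome, 3 were above the floor in the ductal arrays, and 1 of these was identical (Fbxo5), 1 lower (Fbxo4) and 1 higher (Fbxo31) in deleted cells. Fbxo5, the inhibitor of the anaphase-promoting complex, read 6.00 in both, and its egg-specific relative Fbxo43 read 3.79 in all 3 arrays, below the floor. Other F-box genes were identical as well, of which Fbxw11 and Fbxl14 were named after their values were seen. Fbxw11, which with Btrc recognises phosphorylated beta-catenin and IkB, read 6.46 in both ductal arrays, and Btrc read 6.76 in both. Skp2, the F-box gene for the turnover of the cell cycle inhibitor p27, read 5.29 in all 3 arrays. This was just below the floor in beta cells and just above it in both ductal arrays. Fbxl14, whose protein acts on Snail transcription factors, read 7.80 in both ductal arrays.

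The second comparison sets beta cells against control ductal cells. Here 7 of 43 F-box genes above the floor were at least 2-fold lower in beta cells (16.3%, against 25.8% of all 11139 genes) and 1 was at least 2-fold higher (2.33%, against 6.37%). The median difference was -0.03 for the F-box genes and -0.11 for all genes. By direction, 22 were lower (51.2%, against 53.8%), 7 higher (16.3%, against 27.3%) and 14 identical (32.6%, against 18.9%). Of the 8 genes past 2-fold, 12.5% were higher. With the arrays quantile-normalized the split was 2 higher and 4 lower (33.3% higher), and the same counts were found with the loess trend removed. Over all genes the split was 710 higher and 2875 lower as deposited, and 1189 and 2009 after quantile normalization. With the loess trend removed it was 901 and 1784. Quantile normalization moved the median of all genes up by 0.19, removing the loess trend by 0.13, and centring each array moved it by -0.20. Differences of single genes between these arrays are relative to such shifts.

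The largest negative difference was that of Fbxo30, which encodes a muscle atrophy ubiquitin ligase subunit. It read 6.82 in both ductal arrays and 5.20 in beta cells, just below the floor there, so that it was at least 2.87-fold lower. Fbxo11 read 7.04 in control ductal cells and 5.54 in beta cells, or 2.82-fold lower. Fbxo3, whose protein targets Fbxl2, read 6.60 and, below the floor, 5.26, at least 2.45-fold lower. Fbxl17 was at least 2.10-fold lower, with 5.09 in beta cells. These 4 genes stayed at least 2-fold lower under quantile normalization, with each array centred and with the loess trend removed.

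The other 3 lower genes depended on the scaling. Fbxl20, known for the turnover of the synaptic vesicle release factor Rim1, read 7.48 in control ductal cells and 6.14 in beta cells, a difference of -1.34; after quantile normalization it was -0.74 and with the loess trend removed -0.62. Fbxo33 read 6.74 and 5.55, a difference of -1.19, and Fbxl5 read 6.68 and 5.61, a difference of -1.07. After quantile normalization these were -0.97 and -0.84. Just short of 2-fold were Fbxw8 (-0.94), Fbxo5 (-0.91), Fbxo8 (-0.84) and Fbxo22 (-0.83), and each of these 4 passed it with the arrays centred. Fbxo5 read 5.09 in beta cells, below the floor, and 6.00 in both ductal arrays.

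Fbxw22 was the gene at least 2-fold higher in beta cells. It read 5.69 in beta cells against 4.11 in control and 4.22 in deleted ductal cells, both far below the floor, so that the difference of 1.58 was 0.46 against the floor. The annotation also lists Fbxw22 on a probe set with 3 other Fbxw genes, so this value is uncertain as a measure of 1 gene. Fbxl2, a lipid-anchored F-box protein gene, read 5.98 in beta cells and 5.13 in control ductal cells, and Fbxo34 read 6.82 and 6.04, a difference of 0.79. After quantile normalization the Fbxo34 difference was 1.43, and with the loess trend removed it was 1.27. With that trend removed Fbxw22 was at 0.61, short of 2-fold. Fbxl18 was higher by 0.63. The muscle gene Fbxo40 and Fbxo41 read 5.35 and 5.37 in beta cells, near the floor, and below it in both ductal arrays. Fbxo15 and Fbxo48 were also more than 2-fold higher in beta cells, but read below the floor in every array. The direction of some small differences depended on the scaling: Fbxl14 was at -0.20 as deposited and at 1.14 with the loess trend removed, and Fbxw5 moved from -0.19 to 0.55.

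**Figure D2:**
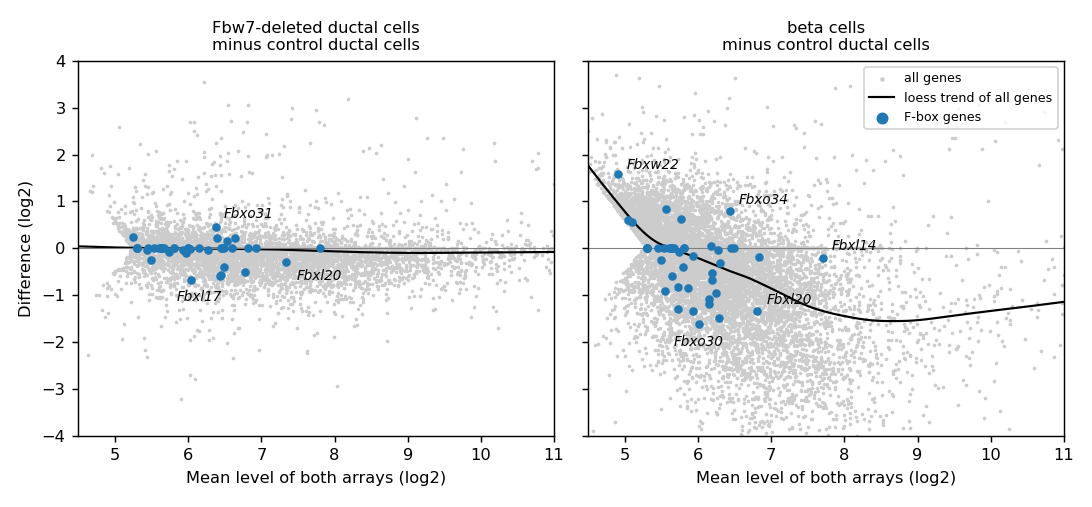
Difference between arrays (log2, vertical axis) against the mean level of both arrays (log2, horizontal axis) for deleted minus control ductal cells (left) and beta minus control ductal cells (right); grey points are all genes above the floor, blue points the F-box genes and the line the loess trend of all genes, and genes beyond log2 4 on either side are not drawn. On the right the trend runs from above 0 at low levels to below 0 at higher levels, with Fbxl14 (-0.20) above it and Fbxo30 (-1.62) below it.

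A difference that depends on level bears on how the F-box genes are read beside other genes. With the floor raised to the 75th percentile of each array, 6 of 15 F-box genes were at least 2-fold lower in beta cells (40%), where 41.0% of all genes were. The median difference was then -0.67 for the F-box genes and -0.69 for all genes. Among brighter genes the F-box genes thus read at least 2-fold lower in beta than in control ductal cells about as often as other genes. Against deleted ductal cells, 4 of 16 F-box genes above this floor were at least 2-fold lower (25%, against 36.5% of all genes).

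To show the sequence in front of genes that read lower together in beta cells, the 250 bases before the start are given from RefSeq (GRCm38.p6) for the 4 of these 7 genes that have 1 listed start, and for Fbxw15 of the tandem array as a contrast. Sequences run 5′ to 3′ on the gene's strand, and capitals mark matches on either strand to the CCAAT box (its name gives its letters), to the GC box with the letters GGGCGG, to the Myc E-box with the letters CACGTG, or to the TATA box with the letters TATAAA. In the Fbxo30 sequence 3 of the GC box matches overlap each other in turn.
Fbxo30 (chr10:11281337-11281586, plus strand): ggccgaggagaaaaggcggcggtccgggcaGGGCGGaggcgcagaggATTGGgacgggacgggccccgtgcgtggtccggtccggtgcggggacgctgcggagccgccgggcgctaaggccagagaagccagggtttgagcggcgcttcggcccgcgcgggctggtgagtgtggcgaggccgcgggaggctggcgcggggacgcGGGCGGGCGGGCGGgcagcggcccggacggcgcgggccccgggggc
Fbxl17 (chr17:63500581-63500830, minus strand): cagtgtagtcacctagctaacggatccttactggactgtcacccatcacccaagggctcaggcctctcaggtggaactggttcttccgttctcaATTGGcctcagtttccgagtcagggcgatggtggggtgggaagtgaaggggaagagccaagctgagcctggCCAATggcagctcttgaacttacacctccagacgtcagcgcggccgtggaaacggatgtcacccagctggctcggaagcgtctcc
Fbxl20 (chr11:98149617-98149866, minus strand): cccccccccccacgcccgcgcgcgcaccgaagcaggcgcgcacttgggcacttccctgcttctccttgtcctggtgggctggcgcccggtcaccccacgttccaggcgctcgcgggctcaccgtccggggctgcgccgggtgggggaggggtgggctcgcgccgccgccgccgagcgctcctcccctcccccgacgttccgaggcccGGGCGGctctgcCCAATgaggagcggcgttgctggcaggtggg
Fbxo33 (chr12:59219484-59219733, minus strand): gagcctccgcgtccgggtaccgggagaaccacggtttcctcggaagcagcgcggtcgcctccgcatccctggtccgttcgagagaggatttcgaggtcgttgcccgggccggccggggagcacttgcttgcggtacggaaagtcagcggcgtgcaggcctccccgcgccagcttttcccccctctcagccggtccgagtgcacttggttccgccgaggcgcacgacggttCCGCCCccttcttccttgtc
Fbxw15 (chr9:109568263-109568512, minus strand): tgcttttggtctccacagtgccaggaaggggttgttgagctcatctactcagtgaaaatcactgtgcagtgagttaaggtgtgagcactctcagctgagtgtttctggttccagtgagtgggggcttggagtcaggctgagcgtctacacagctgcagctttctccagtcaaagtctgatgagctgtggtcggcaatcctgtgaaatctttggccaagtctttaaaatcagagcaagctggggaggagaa

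The 250 bases before Fbxo30 held 40 CG dinucleotides, those before Fbxl20 held 32, Fbxo33 31 and Fbxl17 11, while Fbxw15 had 2. Fbxo30 had 4 matches to the GC box, Fbxl20 and Fbxo33 had 1 each, and Fbxl17 had 0. For the CCAAT box, Fbxl17 had 2 matches, Fbxo30 and Fbxl20 had 1 each, and Fbxo33 had 0. Over 71 listed starts of 52 F-box genes, the median was 14 CG dinucleotides, and over all 32841 listed starts it was 6. It was 15 for leucine-rich repeat genes, 15 for genes with other domains, 13.5 for the WD repeat group and 1.5 for the Fbxw genes of the tandem class, whose 8 starts held between 0 and 7. GGGCGG was present before 56.3% of F-box starts and 32.7% of all starts, CCAAT before 22.5% and 33.9%, CACGTG before 4.23% and 6.02%, and TATAAA before 0 of 71 and 12.4%. Starts of 1 gene or of neighbouring genes can share bases, so these are not independent, and a match to such letters does not show binding. The 8 starts of the tandem class belong to 7 of its 9 genes. Fbxw13 and Fbxw22 have none listed, so 1 of the class's 2 genes above the floor is not covered. The other, Fbxw17, had the class's highest count, 7.

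**Figure D3:**
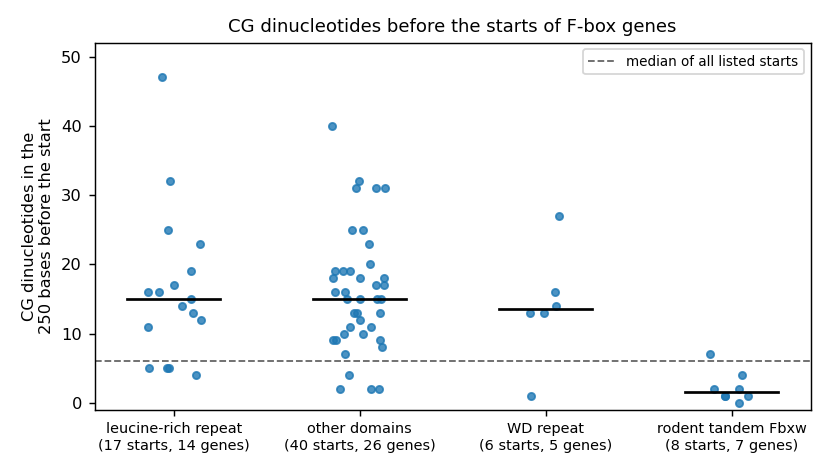
Number of CG dinucleotides in the 250 bases before each listed start (vertical axis) of F-box genes, by class (horizontal axis); each point is 1 start, the bar is the class median and the dashed line the median of all listed starts, 6. The 8 starts of the tandem class hold between 0 and 7, and the class medians of the others lie between 13.5 and 15.

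The third comparison sets beta cells against deleted ductal cells and shares the beta cell array with the second, so these comparisons are not independent. Of 43 F-box genes, 4 were at least 2-fold lower in beta cells (9.30%, against 23% of all 11095 genes) and 1 at least 2-fold higher (2.33%, against 5.13%). The lower genes were Fbxo30 (at least 2.87-fold), Fbxo3 (at least 2.45-fold), Fbxo8 (2.08-fold) and Fbxl20 (2.07-fold), and the higher one was Fbxw22 (0.45 against the floor). Fbxo8, which carries a Sec7 domain, read 5.44 in beta cells, 6.29 in control and 6.50 in deleted ductal cells. Of the 5 genes past 2-fold, 20% were higher, while quantile-normalized arrays gave 2 higher and 2 lower (50% higher). With the loess trend removed 1 was higher and 2 were lower (33.3% higher). The direction split was 20 lower (46.5%, against 51.3%), 7 higher (16.3%, against 27.8%) and 16 identical (37.2%, against 20.9%).

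Over all 3 arrays, 8 of the 43 genes had their lowest level in beta cells, a middle level in deleted ductal cells and their highest level in control ductal cells (18.6%, against 24.5% of genes above the floor). These were Fbxl5, Fbxl17, Fbxl20, Fbxo11, Fbxo33, Fbxo38, Fbxo42 and Fbxw8. Fbxl17 read 5.09, 5.71 and 6.38 in that order, Fbxo33 5.55, 6.16 and 6.74, Fbxo11 5.54, 6.53 and 7.04, and Fbxl5 5.61, 6.29 and 6.68. Both differences from control ductal cells use the same control array. Fbxo8, Fbxo28 and Fbxw2 were lowest in beta cells and highest in deleted ductal cells (6.98%, against 6.98%). Fbxo30 and Fbxo3 read the same in both ductal arrays. In all, 19 of the 43 genes read lower in beta cells than in both ductal arrays (44.2%, against 48.5% of genes above the floor), and 6 read higher than in both (against 25.3%). Only Fbxo30, Fbxo3 and Fbxl20 were at least 2-fold lower than in both, or 6.98% against 21.3%, and only Fbxw22 was at least 2-fold higher than in both, or 2.33% against 4.68%.

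Genes of the SCF core and of cullin regulation were compared in the same way. The list holds Skp1, Cul1 and Rbx1 with its relative Rnf7, genes that attach or remove Nedd8, exchange F-box subunits or otherwise bind and regulate SCF ligases, and the ubiquitin-conjugating enzymes Cdc34 and Ube2r2. Of its genes, 29 were measured. Between the ductal arrays 0 of 28 above the floor were 2-fold apart, with a median of 0. Of all genes, 1.43% were at least 2-fold higher and 1.81% lower. By direction, 12 of the 28 were lower in deleted cells (42.9%, against 35.4% of all genes), 15 were identical (53.6%, against 48.2%) and 1 was higher (against 16.4%). Skp1 read 8.52 in control and 8.16 in deleted ductal cells, Rbx1 8.06 and 8.04, and Cul1 7.66 in both. The largest difference in the list was that of Ube2r2, a ubiquitin-conjugating enzyme of SCF ligases, at -0.65.

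Between beta and control ductal cells most genes of the list were more than 2-fold apart. Of 27 genes of the list above the floor, 16 were at least 2-fold lower in beta cells (59.3%, against 25.8% of all genes and 16.3% of the F-box genes) and 0 were higher, with a median difference of -1.44. Skp1 read 6.06 in beta cells, a difference of -2.46. Cul1 read 5.24 in beta cells, below the floor, and was at -2.36 against the floor. Rbx1 was at -1.39, with a level of 6.68 in beta cells. The COP9 signalosome removes Nedd8 from cullins, and its subunit gene Cops6 had the largest difference, -3.06. Cops2 was at -2.48, Cops5, the catalytic subunit, at -1.92, Cops7a at -1.82, Cops3 at -1.71 and Cops4 at -1.08. Cops8 was at -0.18, and Cops7b was below the floor in both arrays. Of the genes that attach Nedd8, Uba3 was at -2.19, Nedd8 itself at -1.59, Dcun1d5 at -1.44 and Dcun1d1 at -1.20 against the floor. Dcun1d4 was at -0.54 and Nae1 at -0.27. Rnf7 was at -2.07 and Ube2r2 at -1.90. Cand1, which exchanges F-box subunits on Cul1, read 4.74 in beta cells and was at -1.98 against the floor. Gps1, Dcun1d2, Dcun1d3, Cand2 and Ube2f read the same in both arrays. After quantile normalization 11 of 27 were at least 2-fold lower (40.7%, against 17.9% of all genes). The median was then -0.71, against 0.09 for all genes. With the floor at the 75th percentile it was 16 of 19, or 84.2%, against 41.0% of all genes and 40% of the F-box genes. With the loess trend removed 10 of 27 were at least 2-fold lower (37%, against 16% of all genes and 9.30% of the F-box genes). Their median was -0.61, against 0.02 for all genes. The difference between this list and the F-box genes was not tested.

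F-box genes under other names and the other cullins were also measured. Of 6 such F-box genes measured, Btrc, which read 7.18 in beta cells and 6.76 in both ductal arrays, and the histone demethylase gene Kdm2a, with 6.69 and 7.45, were above the floor in all arrays, and none was 2-fold apart in any comparison of the deposited values. After quantile normalization 1 of 3 was at least 2-fold higher in beta cells than in control and than in deleted ductal cells. With the loess trend removed it was 1 of 2. Of all genes, 10.6% and 9.38% were higher after quantile normalization, and 8.09% and 6.43% with the trend removed. The median against control ductal cells was then 0.06 and 0.70, in place of -0.17. Ccnf, Kdm2b and Lrrc29 read below the floor in all arrays. Of 7 other cullin genes, 0 were 2-fold apart between the ductal arrays and 4 read at least 2-fold lower on the beta cell array than on the control ductal array, where 25.8% of all genes did, with a median of -1.08. With the loess trend removed, 2 of 7 were lower (28.6%, against 16% of all genes) and the median was -0.78 (against 0.02). With levels raised to the floor, 2 of 7 were lower (28.6%, against 24.3%) and the median was -0.63 (against -0.09). After quantile normalization 3 were lower (42.9%, against 17.9%). Cul3, the scaffold of BTB-protein ligases, read 8.64 in control ductal cells and 6.70 in beta cells, a difference of -1.93. Cul5 was at -1.27, Cul2 at -1.24 (-0.63 against the floor) and Cul4b at -1.08 (-0.97 against the floor), while Cul9 was at 0.41.

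**Figure D4:**
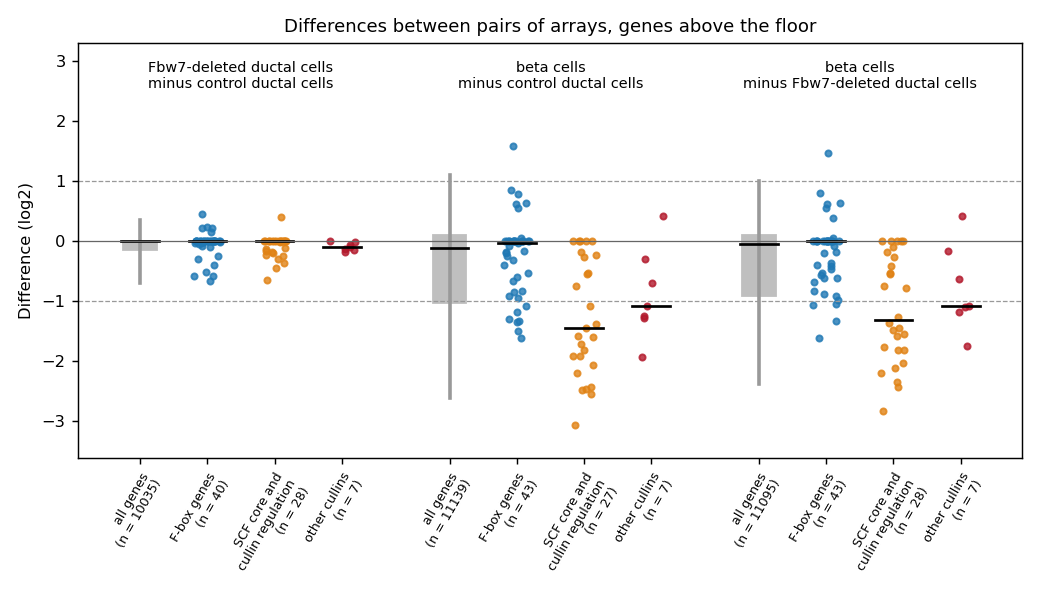
Differences (log2, vertical axis) for the 3 pairs of arrays; grey boxes hold the interquartile range of all genes with lines from percentile 5 to percentile 95, points are single genes above the floor, black bars are medians and dashed lines mark 2-fold. F-box genes had medians of 0, -0.03 and 0, while the SCF core list had medians of 0, -1.44 and -1.31.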

How the data were processed

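Values were the authors' deposited log2 intensities per probe set, made with RMA per the submitters' processing notes; its version, and which arrays were summarised together, are not given in the sources. Per the labels' protocols, 18 ng of RNA was amplified and labelled with biotin. Of 35556 probe sets, the platform annotation lists 1 gene for 21789, several for 1621 and none for 12146; genes came from the first kind. A gene entered a comparison of 2 arrays if its higher level was above the median of that array's single-gene probe sets. Log2 differences, medians and counts past 2-fold were computed without a test. Where 1 level was below the floor, an "at least" fold takes the floor in its place. Members and lists were chosen with earlier results of these data known. Named genes are F-box genes at least 2-fold apart, the 10 largest differences in each direction and comparison, those with several probe sets, those of role groups, and SCF genes at least 2-fold apart, with Skp1, Cul1, Rbx1, Skp2, Btrc and Fbxw7; other SCF genes and F-box genes were named after their values were seen. Fbxo18 of the role groups was not analysed here. Alternatives were other floors (none, the 75th percentile, levels raised to the floor), 1.5-fold and 4-fold as thresholds, arrays quantile-normalized or centred, a loess trend removed (span 0.3) and averaging of each gene's probe sets. Steps were tested on simulated data. Computations used matplotlib 3.10.9, pandas 2.3.3, numpy 2.4.6 and statsmodels 0.14.6 under Python 3.11.15.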

Additional observations from a re-analysis of the deposited data

How the results depend on the processing

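No paired analysis was possible because each group is 1 array, and for the same reason no replicate could be left out; the number of arrays limits every value. Between the ductal arrays, the count of F-box genes past 2-fold was 0 under every alternative run except the 1.5-fold threshold. At 1.5-fold, 2 of 40 were lower (5%, against 7.25% of all genes). For beta against control ductal cells, the 7 lower genes became 13 at 1.5-fold (30.2%, against 36.1% of all genes). At 4-fold there were 0 (against 10.3%), and after quantile normalization 4 (9.30%, against 17.9%). With arrays centred there were 11 (25.6%, against 30.7%), and with the loess trend removed 4 (9.30%, against 16%). The 1 higher gene became 5 at 1.5-fold, 0 at 4-fold, 3 without a floor, 0 with the floor at the 75th percentile, 0 with levels raised to the floor, 2 with quantile normalization and 2 with the loess trend removed. The median moved from -0.03 to -0.67 with the 75th percentile floor and to -0.23 with centring. That of all genes moved from -0.11 to -0.69 and to -0.31. For beta against deleted ductal cells, the 4 lower genes became 11 at 1.5-fold (25.6%, against 33.5% of all genes) and 0 at 4-fold (against 8.25%). They became 2 after quantile normalization (4.65%, against 16.9%), 8 with centring (18.6%, against 27.2%) and 2 with the loess trend removed (4.65%, against 15.3%). The count of 1 higher gene became 4 at 1.5-fold (9.30%, against 13.0% of all genes), 0 at 4-fold (against 0.57%) and 3 without a floor (4.35%, against 6.05%). It became 0 with the 75th percentile floor (against 5.05%), 0 with levels raised to the floor (against 2.33%) and 2 with quantile normalization (4.65%, against 9.38%). The count stayed at 1 with the loess trend removed (2.33%, against 6.43%), but that gene was Fbxo34 and not Fbxw22. The median of 0 became -0.44 with the 75th percentile floor and -0.18 with centring. That of all genes moved from -0.05 to -0.54 and to -0.22. A stricter floor or threshold leaves fewer genes to count; for the other changes the cause was not tested. No F-box gene past 2-fold in the reported values changed sign under the alternatives run. Fbxl14, short of 2-fold at -0.20 for beta against control ductal cells, was at 1.14 with the loess trend removed. In 13 cases, this one included, a gene's difference passed 2-fold under an alternative and in 14 cases it no longer did.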

Other observations

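Some F-box genes shared their exact value with other probe sets as well as across arrays. Fbxl12, Fbxl15 and Fbxo44 all read 5.31 in every array, to the last deposited digit, and 63 probe sets held this same value in all 3 arrays. Fbxl6 and Fbxl8 both read 5.63 in every array, a value that 28 probe sets held throughout, and Fbxl7 and Fbxo17 both read 5.81, as 43 probe sets did. In control ductal cells 39 of the 69 F-box genes (56.5%) had a value that another probe set of the array also had, against 48.5% of all probe sets; in deleted ductal cells it was 45 (65.2%, against 50.1%) and in beta cells 33 (47.8%, against 29.4%).

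Of the 7 pairs of F-box genes that neighbour each other, the 4 in the Fbxw array on chromosome 9 read below the floor throughout. Fbxo6, Fbxo44 and Fbxo2 follow each other on chromosome 4; Fbxo6 and Fbxo44 were above the floor with the same value in all arrays, while Fbxo2 read 4.62 in beta cells, 4.27 in control and 3.94 in deleted ductal cells. Fbxo27 and Fbxo17 are neighbours on chromosome 7, and Fbxo17 was above the floor in all arrays while Fbxo27 read 5.07 in beta cells and 4.74 in both ductal arrays.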
